A study of Saccharomyces cerevisiae with 40 samples.

Results

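Yeast cells destroy most cytoplasmic mRNA through one general pathway, and 10 genes that encode its factors were followed here. For removal of the poly(A) tail they were CCR4 (locus YAL021C), POP2 (YNR052C) and PAN2 (YGL094C), and for removal of the 5′ cap DCP1 (YOL149W), DCP2 (YNL118C) and EDC3 (YEL015W). DHH1 (YDL160C), PAT1 (YCR077C) and LSM1 (YJL124C) encode activators of decapping, and XRN1 (YGL173C) the exonuclease that digests the decapped body. The genes were chosen by name: a probe set was taken if its only gene symbol in the platform annotation was one of these 10. Each symbol had 1 probe set, so 10 of the 9335 probe sets on the array were members, and all 10 passed the filter on low signal that kept 7420 of 9275 probe sets other than controls.

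The study followed Saccharomyces cerevisiae on 40 Affymetrix arrays during expression of NMD2, which encodes a core factor of nonsense-mediated decay (NMD). Both strains came from 1 host, HFY1400, whose NMD2 gene is disrupted by HIS3 (nmd2::HIS3), so the controls carried the disruption too. GAL-NMD2 cells held a plasmid on which the GAL1 promoter, which galactose induces, drove NMD2, and nmd2D cells held an empty URA3 vector. The 5 sampling times were 0, 10, 20, 40 and 60 min, and with 4 biological replicates of each strain at each time there were 10 groups of 4 arrays. All cultures grew in SC medium without uracil. The series design describes raffinose medium to which galactose was added, whereas the growth protocol of the samples, with 30 °C given for all of them, names galactose alone. How many transformants stood behind the replicates was not given in the sources used here.

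In the general pathway, the Pan2-Pan3 and Ccr4-Not complexes shorten the poly(A) tail. The Lsm1-7 ring, Pat1 and Dhh1 then promote removal of the cap by Dcp1-Dcp2, and the exonuclease Xrn1 degrades the RNA from its 5′ end. NMD in yeast uses the same decapping enzyme and exonuclease, but its substrates are decapped without prior shortening of the tail.

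Values are the deposited MAS5 signals, a linear brightness with no unit, given as mean ± SD of 4 arrays. Differences are on the scale of log2(signal + 16), with the standard error (SE) of the limma fit. Statements of 2-fold refer to signal + 16, which for dim probe sets allows a larger fold in signal itself. A difference was called at a Benjamini-Hochberg adjusted p under 0.05 over all 7420 probe sets. The interaction subtracts the nmd2D change since 0 min from that of GAL-NMD2. Median signal per array ranged from 61.3 to 86, the ratio of the 3′ to the 5′ actin control from 1.38 to 2.95, and correlations within groups from 0.960 to 0.989. In GAL-NMD2 at 20 min, 1 array, of replicate 2, stood apart from its group with a median signal of 84.4 against 63.8 to 68 in the others, and no result at 20 min called a decay gene with it or without it. As a check of the strains, NMD2 itself averaged 1038 ± 177 before and 1654 ± 212 after 60 min of induction in GAL-NMD2. Its probe set also gave signal in the disrupted strain, 895 ± 34.9 at first and 889 ± 132 at the end. The NMD2 interaction at 60 min was log2 0.69 with an SE of 0.21 (adjusted p = 0.0485 by limma), a call lost in 10 of 15 other settings. NMD2 was also called in GAL-NMD2 from 0 to 60 min (log2 0.67, limma adjusted p = 0.00121). Between the strains it was called at 20, 40 and 60 min, but not at 0 or 10 min. At 60 min that strain difference was log2 0.89 (limma adjusted p = 2.59e-05), with GAL-NMD2 higher in 4 of 4 replicate numbers.

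None of the 10 decay genes was called in any of the 19 comparisons made with limma on the deposited scaling without a replicate block. The share of all probe sets called sets the scale for that count. Between the strains it was 0.0135%, 0.0135%, 0.499%, 8.56% and 12.4% over the 5 times in order. Of interactions it was 0%, 0.0135%, 1.5% and 3.92% over the times after 0 min. Against 0 min, GAL-NMD2 reached 0.0674%, 0.445%, 9.14% and 11.5% at the later times, and nmd2D 0.0943%, 0.148%, 0.229% and 0.256%. The 2 remaining comparisons called 9% (60 against 0 min over both strains) and 0.162% (strains over all 5 times).

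Between the strains at 60 min, 885 of all probe sets were called lower with GAL-NMD2 and 32 higher, and 0 of 10 decay genes were among them. Their differences ran from -0.35 for LSM1 to 0.31 for POP2, with a median of -0.0005 against -0.05 over all probe sets. At 60 min the 95% confidence intervals of all 10 lay within a 2-fold difference in signal + 16 either way. The interaction at 60 min was called below 0 for 290 probe sets and above 0 for 1, and again for 0 of 10 decay genes. There the median of the decay genes was 0.11 against -0.01 over all probe sets, 7 of 10 lay above 0, and 7 of 10 intervals lay within 2-fold. In these bulk extracts, a change in every cell and a change in part of the cells cannot be told apart.

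**Figure D1:**
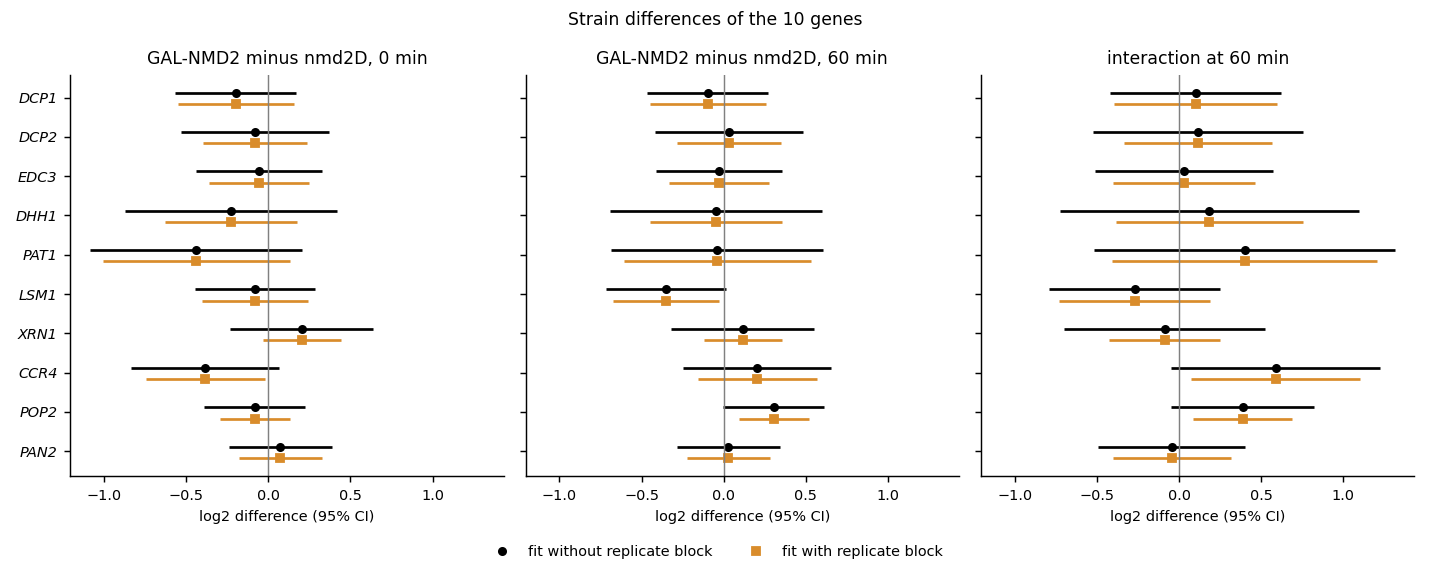
Difference between GAL-NMD2 and nmd2D at 0 and 60 min and the interaction at 60 min for each decay gene (log2, points) with unadjusted 95% confidence intervals (lines), from the fits without and with the replicate number as a block. All intervals without the block include 0; with it, those of CCR4 (0 min, interaction), LSM1 (60 min) and POP2 (60 min, interaction) do not, of which POP2 at 60 min passed the adjusted test.

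At an unadjusted p under 0.05, limma picked 0 of 10 genes in 17 of the 19 comparisons. The exceptions were LSM1 in GAL-NMD2 from 0 to 40 min and CCR4 in GAL-NMD2 from 0 to 60 min. At that unadjusted threshold 19.3% of all probe sets passed in the former comparison and 21.3% in the latter. In nmd2D, which received no NMD2, the differences of the decay genes from 0 to 60 min lay between -0.29 (DHH1) and 0.14 (XRN1). Between the strains before induction, at 0 min, they lay between -0.44 (PAT1) and 0.20 (XRN1), and 9 of 10 intervals were within 2-fold.

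**Figure D2:**
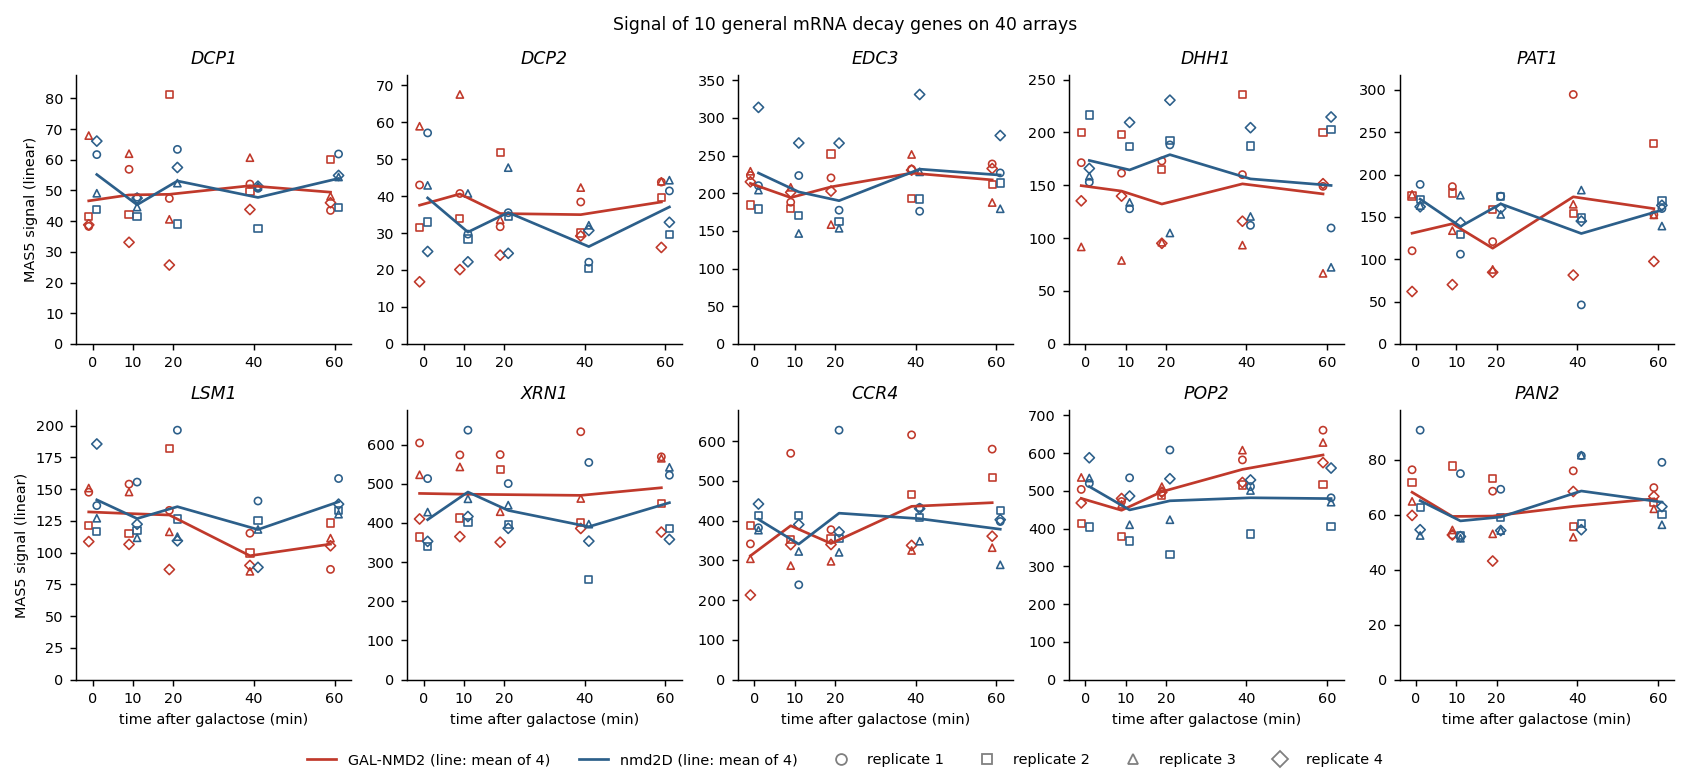
MAS5 signal (linear) of the 10 decay genes against time (min) on all 40 arrays, with symbols for the replicate number, colours for the strain and lines through group means. The strains overlap at each time for each gene except LSM1 at 60 min, and POP2 in GAL-NMD2 has its highest mean, 595, at 60 min.

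POP2, the Caf1 deadenylase subunit of Ccr4-Not, had its highest mean in GAL-NMD2 at 60 min. In GAL-NMD2 its means over the 5 times, in order, were 480.2 ± 52.7, 449 ± 47.1, 498 ± 9.91, 557 ± 45.3 and 595 ± 63.3. The nmd2D means were 512 ± 77.3, 449.7 ± 75.2, 474 ± 122, 482 ± 65.2 and 479.7 ± 63.5. The GAL-NMD2 replicates 1 to 4 read 504, 412.8, 535.8 and 468.2 at 0 min, and 661.1, 516.7, 628.4 and 575.1 at 60 min. Thus every GAL-NMD2 replicate had a higher POP2 signal at 60 min than at 0 min, although the ranges of both times overlapped. The nmd2D replicates read 519.9, 404.4, 534.2 and 588 at 0 min, and 481.8, 405.9, 470.3 and 560.7 at 60 min. These stayed level or were lower, with 3 of 4 lower at 60 min.

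For POP2 in GAL-NMD2 the difference from 0 to 60 min was log2 0.30 (SE 0.15, limma adjusted p = 0.247), and 4 of 4 replicates were higher. With the replicate number as a block the limma adjusted p was 0.0331, so the call depended on the block; arrays of the same number deviated together. With the block, 23.6% of all probe sets were called in that comparison, and 4.81% were called higher. Between the strains at 60 min POP2 was log2 0.31 higher in GAL-NMD2 (SE 0.15, 95% interval -0.002 to 0.61, limma adjusted p = 0.241), again in 4 of 4 pairs, and the adjusted p with the block was 0.0323. That fit called 22.2% of all probe sets, and 2.1% as higher. The interaction of POP2 at 60 min was 0.39 (SE 0.21, limma adjusted p = 0.617, with the block 0.108). Thus the difference in change between the strains did not pass the test in either of these fits.

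CCR4, the main deadenylase of the complex, averaged 311 ± 74.1, 387 ± 125, 342 ± 33.6, 436 ± 136 and 445 ± 118 in GAL-NMD2 over the 5 times. In nmd2D it averaged 403 ± 30.4, 341 ± 78.4, 418 ± 141, 405 ± 39.3 and 378 ± 60.8. Its GAL-NMD2 values were 341.3, 387.3, 303.8 and 212.5 at 0 min and 579.6, 507.7, 331.7 and 360.6 at 60 min. All 4 were higher at 60 min, but by very different amounts, and replicates 3 and 4 at 60 min stayed below the 387.3 that replicate 2 read at 0 min. In nmd2D the values were 381.8, 412.4, 375.8 and 441.6 at 0 min and 397.5, 424.3, 288.6 and 402.1 at 60 min. Those nmd2D values at 0 min had a narrow spread, and in each pair the GAL-NMD2 value at 0 min was the lower one.

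For CCR4 in GAL-NMD2 the difference from 0 to 60 min was log2 0.49 (SE 0.22, limma adjusted p = 0.183, with the block 0.0427). The interaction at 60 min was 0.59, the largest among the 10 genes (SE 0.31, 95% interval -0.05 to 1.22, limma adjusted p = 0.576, with the block 0.176), positive in 4 of 4 replicate numbers. That interaction combined a strain difference of -0.38 at 0 min with one of 0.20 at 60 min, neither of which was called. Between the strains at 60 min CCR4 was higher in GAL-NMD2 in 3 of 4 pairs (limma adjusted p = 0.749).

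**Figure D3:**
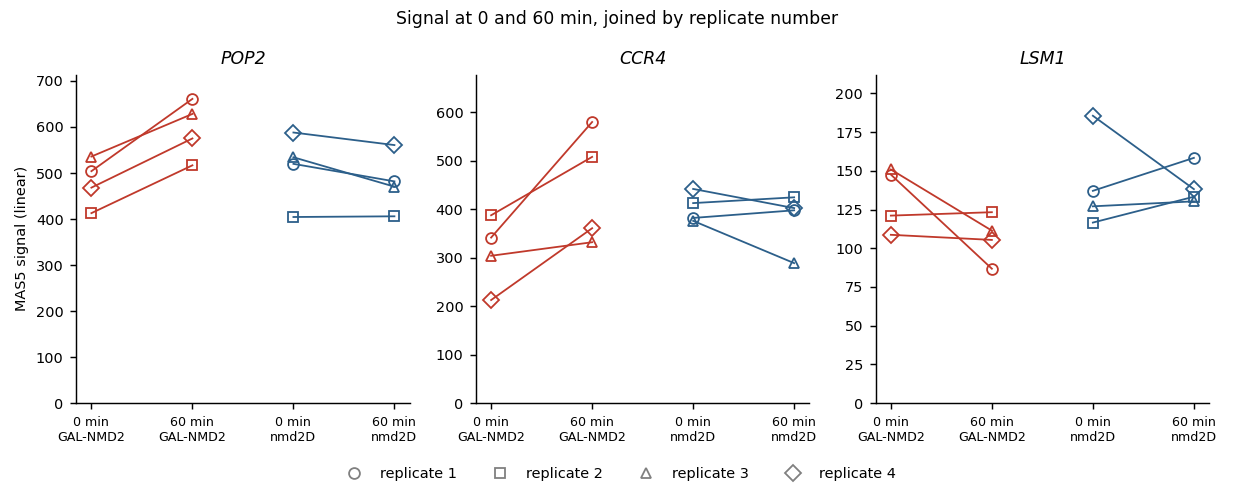
MAS5 signal (linear) of POP2, CCR4 and LSM1 at 0 and 60 min, with lines joining arrays of the same strain and replicate number. POP2 and CCR4 are higher at 60 min on all 4 GAL-NMD2 lines, and at 60 min the LSM1 values of GAL-NMD2 (86.8 to 123.3) all lie below those of nmd2D (130.3 to 158.4).

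PAN2, the catalytic subunit of the other deadenylase, stayed close to its mean. At 0 min the GAL-NMD2 arrays averaged 68.1 ± 7.34 and the nmd2D arrays 65.1 ± 17.7, and at 60 min 65.7 ± 3.28 and 64.5 ± 10.0. Over all 10 groups its means ran from 57.7 in nmd2D at 10 min to 68.6 in nmd2D at 40 min, a log2 range of 0.20, which is about the pooled SD between arrays of a group, 0.21. Its interaction at 60 min was -0.04 (SE 0.22, limma adjusted p = 1.00), with an interval from -0.49 to 0.40.

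The decapping enzyme had dim probe sets. DCP2, the catalytic subunit, ranged from 16.8 to 67.5 over the 40 arrays with a median of 33.3, and DCP1, its regulatory partner, from 25.7 to 81.3 with a median of 48.6. At 0 min DCP2 averaged 37.5 ± 17.8 with GAL-NMD2 and 39.5 ± 13.8 with the empty vector, and at 60 min 38.4 ± 8.44 and 37.0 ± 6.93. Its lowest group was nmd2D at 40 min, where the replicates read 22.1, 20.4, 32.1 and 30.7 against 38.4, 30, 42.3 and 29.2 in GAL-NMD2. The ranges overlapped, and the strain difference of 0.27 at 40 min was not called (SE 0.22, limma adjusted p = 0.627). At 0 min DCP1 averaged 46.6 ± 14.3 with GAL-NMD2 and 55.2 ± 10.4 with the empty vector, and at 60 min 49.5 ± 7.41 and 53.9 ± 7.16. The log2 interactions at 60 min were 0.10 (SE 0.26) for DCP1 and 0.11 (SE 0.31) for DCP2. The intervals of both subunits included 0 and stayed within 2-fold in signal + 16. At signals this dim the added 16 shrinks differences, so that bound cannot be read as one on signal itself.

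EDC3, a scaffold that enhances decapping, averaged 213 ± 20.0, 194 ± 12.7, 208 ± 39.1, 227 ± 24.5 and 218 ± 23.2 in GAL-NMD2 over the 5 times. In nmd2D it averaged 227 ± 59.7, 202 ± 53.9, 190.0 ± 51.9, 232 ± 69.6 and 224 ± 40.3. The wider spread in nmd2D came with replicate 4, which read 266.4 to 331 at the 5 times, while the other nmd2D replicates read 146.5 to 228.3. The strain difference of EDC3 was -0.06 (SE 0.19) at 0 min and -0.03 (SE 0.19) at 60 min. Edc3 is known to bring about decay of the RPS28B mRNA and the YRA1 pre-mRNA. RPS28B and YRA1 each had 2 probe sets, of which the one with the higher mean stands for the gene. The interaction at 60 min was 0.11 on that probe set of RPS28B and -0.09 on the other one. For YRA1 it was 0.10 and, on the other probe set, 0.30, and none of these was called. Whether either YRA1 probe set reads the spliced form, the pre-mRNA or both is not known here. Cross-hybridization of the RPS28B probe sets was not examined, so their signal may not come from RPS28B alone.

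LSM1, the subunit specific to the cytoplasmic Lsm1-7 ring, had non-overlapping groups at 60 min, and in 13 comparisons of 2 groups no other decay gene did. Over those comparisons, 0.283% to 13.8% of all probe sets had non-overlapping groups in a given direction. At 60 min the GAL-NMD2 replicates read 86.8, 123.3, 111.4 and 105.4, and the nmd2D replicates 158.4, 133.3, 130.3 and 138.2. Every GAL-NMD2 value was thus below every nmd2D value. The same was so for 13.8% of all probe sets, and the reverse for 1.37%. The difference was log2 -0.35 (SE 0.18, limma adjusted p = 0.269, with the block 0.121), so it did not pass the test. Median signal of the arrays moved the same way, at 65.8 ± 3.73 with GAL-NMD2 and 81.7 ± 3.15 with the empty vector at 60 min. With each array centred on its median, the LSM1 difference was -0.09, while the median of all probe sets moved from -0.05 to 0.21. LSM1 thus lay below the median of all probe sets on both scalings.

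LSM1 in GAL-NMD2 averaged 132 ± 20.5, 131 ± 23.6, 129.7 ± 40.0, 97.6 ± 13.3 and 107 ± 15.2 over the 5 times. In nmd2D it averaged 142 ± 30.5, 127 ± 19.7, 136 ± 40.9, 118 ± 22.0 and 140.1 ± 12.7. From 0 to 40 min the GAL-NMD2 signal was lower in 4 of 4 replicates (log2 -0.38, SE 0.18, limma adjusted p = 0.240). The interaction at 60 min was -0.27 (SE 0.26), the lowest of the 10 genes, and negative in 3 of 4 replicate numbers.

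PAT1, which links the Lsm1-7 ring to the decapping enzyme, varied most between groups, with a log2 range of 0.57 over the 10 group means beside a pooled SD of 0.47 within groups. It averaged 131 ± 55.4, 142 ± 53.2, 113 ± 34.5, 174 ± 88.7 and 159.7 ± 57.5 in GAL-NMD2. In nmd2D it averaged 171 ± 12.1, 139 ± 29.1, 165 ± 10.7, 130.3 ± 58.6 and 158 ± 13.2. At 40 min replicate 1 held both extremes of the 40 PAT1 values, 294.5 in GAL-NMD2 and 46 in nmd2D. The other replicates at 40 min read 154, 164.8 and 81.2 in GAL-NMD2 and 148.6, 181.6 and 145 in nmd2D. GAL-NMD2 replicate 4 was low at each time, 61.8 to 97.3, against 143.2 to 163.6 in replicate 4 of nmd2D. The interaction of PAT1 was 0.82 at 40 min (SE 0.45, limma adjusted p = 0.702) and 0.40 at 60 min (SE 0.45). The interval at 60 min, -0.52 to 1.31, was the widest upward among the 10 genes.

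DHH1, an RNA helicase of the DEAD-box family that activates decapping, averaged 149.7 ± 46.9, 145 ± 49.9, 132 ± 42.5, 151 ± 62.8 and 142 ± 55.4 in GAL-NMD2. In nmd2D it averaged 173 ± 29.2, 165 ± 40.1, 179 ± 52.9, 156 ± 46.6 and 149.9 ± 69.8. Its mean was lower in GAL-NMD2 at each time, but over all 5 times the difference was -0.19 (SE 0.26, limma adjusted p = 0.971). In that comparison, made on the means of the 8 time courses, 5 of 10 decay genes lay above 0.

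For XRN1, the 5′ to 3′ exonuclease, the GAL-NMD2 means were 475 ± 109, 474 ± 101, 472 ± 102, 470.4 ± 113 and 489.9 ± 93.8. The nmd2D means were 408 ± 80.0, 479 ± 108, 432 ± 52.5, 390.3 ± 124 and 452 ± 93.6. Its lowest value, 256.4, was that of nmd2D replicate 2 at 40 min. It was higher in GAL-NMD2 in 4 of 4 pairs at 0, 40 and 60 min, by log2 0.20 (SE 0.21), 0.28 (SE 0.21) and 0.12 (SE 0.21). None of these was called (lowest limma adjusted p = 0.579, at 40 min; 0.0926 with the block, which called 19.1% of all probe sets). The interaction at 60 min was -0.09 (SE 0.30).

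For each of the 10 decay genes the replicate number held more of the variation than strain, time or their combination. Of the sum of squares of log2 signal over the 40 arrays, it took 66.8% for XRN1, 58.4% for DHH1, 48.1% for DCP2 and 41.8% for POP2. The median over all tested probe sets was 33.6%, and the other genes ranged from 8.8% (DCP1) to 38% (PAN2). XRN1 read 500.5 to 636.9 on the 10 arrays of replicate 1 and 350.7 to 416.4 on the 10 arrays of replicate 4, so those ranges did not overlap. DHH1 read 164.9 to 235.9 in replicate 2 and 66.7 to 158.6 in replicate 3, also without overlap. Replicate 3 also had the highest actin 3′ to 5′ ratio, 2.26 to 2.95, against 1.38 to 2.14 in the others; its part in these differences was not tested.

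Strain took 0% to 7.4% of the variation of the decay genes (median over all tested probe sets 4%), with LSM1 at the top. Time took 2.2% to 16.2% (median 9.8%), and was highest for LSM1 and POP2. Strain by time took 2% to 13.6% (median 5.7%), and was highest for CCR4 at 13.6%, PAT1 at 13.2% and POP2 at 10.6%. For DCP1, PAT1 and EDC3 a larger share, 35%, 26.7% and 23.1%, lay in strain differences that varied with the replicate number (median 6%).

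**Figure D4:**
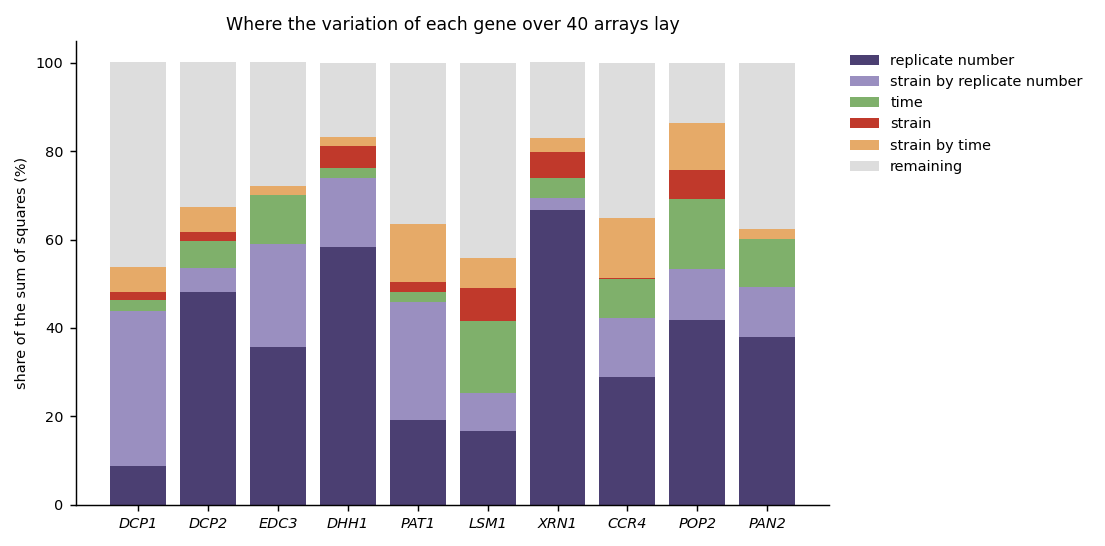
Share (%) of the sum of squares of log2(signal + 16) over 40 arrays that lay between replicate numbers, strains, times and their combinations, with 1 stacked bar per decay gene. Replicate number is the largest named part for XRN1 (66.8%) and DHH1 (58.4%), and strain is 7.4% or less in each bar.

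The deposited values were scaled by the authors to a common trimmed mean, and centring each array on its median instead moved the median of all probe sets from -0.05 to 0.21 for the strains at 60 min. The split of calls there moved from 885 lower and 32 higher to 467 lower and 440 higher. Tested against 0 after centring, POP2 at 60 min was 0.57 (limma adjusted p = 0.0104), a value that contains the moved median. It was the only decay gene called, where 5.93% of all probe sets were called higher. For GAL-NMD2 from 0 to 60 min the median moved from -0.02 to 0.14 and POP2 was 0.47 (limma adjusted p = 0.0338), again the only one of 10, with 4.42% of all probe sets called higher.

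Centring together with the replicate block, a setting added after seeing the data, called more decay genes, all higher in GAL-NMD2 or at the later time, and these tests against 0 also contain the raised median. Between the strains, DCP2, XRN1 and POP2 were called at 40 min (3 of 10, where 17.6% of all probe sets were called higher). XRN1, CCR4, POP2 and PAN2 were called at 60 min (4 of 10, with 27.4% of all called higher). POP2 alone was called for the interaction at 60 min, at 0.56 (limma adjusted p = 0.0078, with 1.37% of all called higher). CCR4 and POP2 were called in GAL-NMD2 at 40 min (16.1% of all called higher) and at 60 min (18.9%), and POP2 over both strains at 60 min (13.1%).

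Further genes of the pathway were taken from 6 lists that held 48 genes, of which 46 were tested. For the interaction at 60 min, 0 of 46 were called by limma, where 3.92% of all probe sets were called. Their median was 0.10, against -0.01 over all probe sets. The medians were 0.15 for 10 further deadenylation genes (Ccr4-Not subunits, PAN3 and associated factors), 0.04 for 11 genes of decapping and the LSM ring, 0.03 for 15 genes of the exosome and SKI complex, and 0.18 for 6 genes of mRNA-binding regulators. With 1 probe set per gene, the largest in size among deadenylation genes were MOT2, a subunit of Ccr4-Not with ubiquitin ligase activity, and PAN3, the partner of Pan2. MOT2 stood at 0.33 and PAN3 at 0.30. CDC39, of the same list, was at 0.11 on the probe set used, but at 0.66 and 0.40 on other tested probe sets. In decapping, SBP1, a repressor of translation, stood at 0.31, and DCS2, a relative of the scavenger enzyme Dcs1, at 0.24. RAT1, the nuclear counterpart of Xrn1, was at 0.23 and its partner RAI1 at -0.31. None of these passed the test, and PBP1 at 0.22 and MPT5 at 0.20 among the RNA-binding regulators did not either.

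The exosome degrades RNA from the 3′ end, and 2 of its subunits, CSL4 and RRP40, had the largest interactions in size of their list, both below 0. CSL4, of the exosome cap, averaged 404 ± 85.9 at 0 min and 341 ± 69.0 at 60 min in GAL-NMD2, and 369 ± 87.1 and 469 ± 116 in nmd2D. The CSL4 interaction was -0.56 (SE 0.32, limma adjusted p = 0.647, with the block 0.0324), lower in 4 of 4 replicate numbers, so the call depended on the block, which called 9.78% of all probe sets. RRP40, another cap subunit, was at -0.31 and was not called in either fit.

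Some further pathway genes changed with time. Averaged over both strains, from 0 to 60 min, 0 of 10 decay genes and 3 of the 46 further genes were called, 2 higher and 1 lower, against 9% of all probe sets. VTS1, an RNA-binding protein that recruits deadenylation, rose (95.3 ± 29.4 to 219 ± 79.9 with GAL-NMD2, 90.5 ± 15.9 to 209 ± 74.5 without it; log2 1.05, SE 0.18, limma adjusted p = 0.000189). Within strains the VTS1 difference was 1.06 in GAL-NMD2 (limma adjusted p = 0.00385) and 1.04 in nmd2D (limma adjusted p = 0.0842, with the block 7.51e-05). RRP42, a subunit of the exosome ring, also rose (156 ± 11.7 to 241 ± 62.3 with GAL-NMD2, 161 ± 29.4 to 239.6 ± 54.4 without it; log2 0.53, SE 0.13, limma adjusted p = 0.00493). DCS1, the scavenger decapping enzyme that hydrolyses the cap left after 3′ decay, fell by 0.43 on the log2 scale, from 275 ± 40.8 to 219 ± 57.7 and from 306 ± 93.8 to 204 ± 47.9 (SE 0.14, limma adjusted p = 0.040); this call was lost in 8 of 15 other settings. With the replicate block, 23.2% of all probe sets were called, and 8 of the 46, adding DCS2 (lower) and RRP4, RRP45, DIS3 and RPS28B (higher; both of its probe sets were called).

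**Figure D5:**
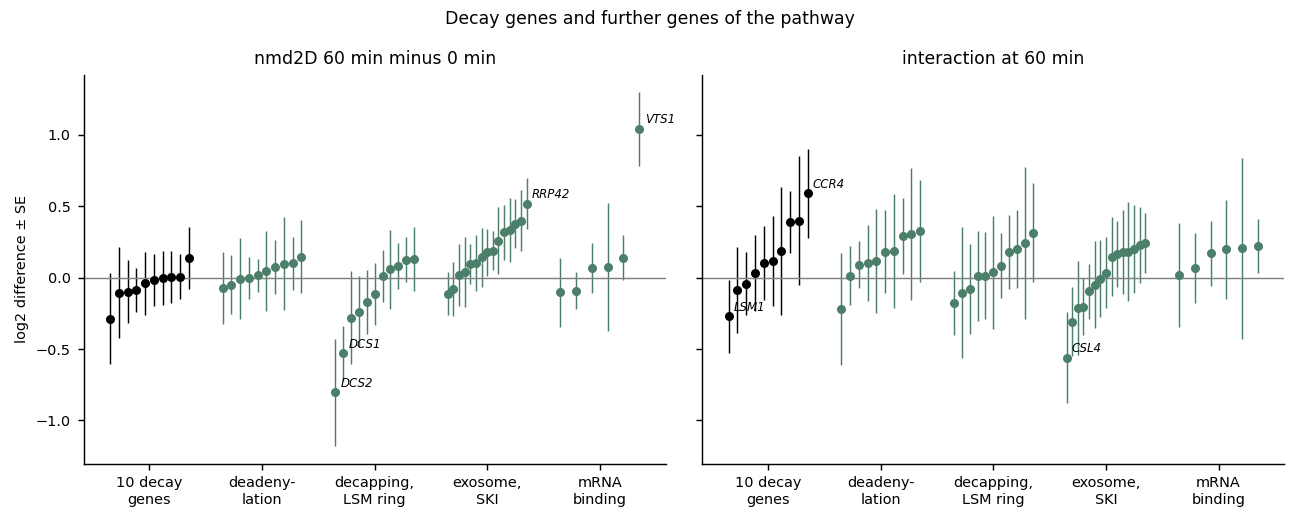
Log2 difference ± SE (limma) of the 10 decay genes (black) and of 4 lists of further pathway genes (green), for nmd2D from 0 to 60 min and for the interaction at 60 min. VTS1 at 1.04 stands highest in nmd2D without restored NMD2, and its interaction is 0.02.

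Over the 10 group means, the course of the 3 decay genes with the widest group ranges was set against 5842 other probe sets of 1 gene. Nearest to PAT1 were YMR209C (r = 0.94), ERP2 (0.90) and ALG7 (0.88), and 0.514% of probe sets exceeded r = 0.8. Nearest to CCR4 were EMP70 (0.90), PSR2 (0.90) and ATG27 (0.89), with 0.548% above 0.8. Nearest to LSM1 were ARA2 (0.96), POL31 (0.95) and NSE3 (0.95), with 10.5% above 0.8. The LSM1 course, with its lowest means in GAL-NMD2 at 40 and 60 min, was thus closely matched by more probe sets than the other 2 courses, on group means that share arrays and scaling.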

How the data were processed

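RNA from 40 samples, which form time courses by strain and replicate number, was measured on Affymetrix arrays. Hot phenol extraction and labelling of 6 ug are named in the labels' protocols. The deposited intensities are linear MAS5 signals, per the submitters' processing notes; which MAS5 version and settings applied is not given in the sources used here. On every array the mean of the middle 96% of values was 250.155 to 250.222, so the deposited values are scaled per array. The number of arrays limits the precision, and cross-hybridization was not examined.

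Probe sets with 1 gene symbol (6504 of 9275; 328 had several, named nowhere) were matched to the R64 gene table. Values were transformed here as log2(intensity + 16), and those with a mean under the 20th percentile were left out. limma 3.58.1 (R 4.3.3; lmFit, eBayes with trend) fitted 10 group means over 40 arrays. Strains over all 5 times were compared on the means of 8 time courses. The fit was also run on simulated data. These held independent noise and no strain differences that vary with the replicate number. That run therefore does not show how the fit performs where such differences exist.

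The decay genes and lists were chosen with earlier results of these data known. All 10 decay genes are named, plus list genes called in a comparison and the 2 per list with the largest interaction at 60 min. Of the lists, EDC1 was below the filter and NGR1 had no probe set under that name; CDC39, LSM2, RPS28B and YRA1 had several, and the one with the highest mean was used. Likeness was taken for the 3 decay genes with the widest group means.

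Replicate numbers come from the labels, which call the replicates biological. Deviations from group means correlated above r = 0.1 in every same-numbered pair, except in comparisons at 20 min between strains (lowest r = 0.068) and for the interaction (lowest r = -0.08). The block is therefore printed beside each decay gene whose call it changes, and for list genes only in part. With the block, CDC36, LSM4 and MPT5 were also called higher between the strains at 40 min, where 19.1% of all probe sets were called. CSL4 was called lower between them at 60 min, with 22.2% of all called. In GAL-NMD2 from 0 to 40 min, CAF120 and PBP1 were called higher and DCS1 and DCS2 lower, with 1487 of 7420 probe sets called. Alternatives were the pseudocount, filter, centring, quantile normalization, block, arrays fitted and each replicate left out.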

Additional observations from a re-analysis of the deposited data

Results flagged for a closer look

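Of the 100 groups of 4 arrays examined for the 10 decay genes, 6 held an array set apart from the other 3 by Dixon's test; at the 95% critical value chance alone gives about 5 in 100. DCP1 read 67.9 in GAL-NMD2 replicate 3 at 0 min, against 38.3 to 41.5 in the others, and 37.5 in nmd2D replicate 2 at 40 min, against 50.7 to 51.4. CCR4 read 288.6 in nmd2D replicate 3 at 60 min, against 397.5 to 424.3. POP2 read 378.7 in GAL-NMD2 replicate 2 at 10 min, against 464.4 to 479.9. PAN2 read 77.7 in GAL-NMD2 replicate 2 at 10 min, against 52.6 to 54.4, and 74.9 in nmd2D replicate 1 at 10 min, against 51.4 to 52.5.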

How the results depend on the processing

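Of 307 recounts of called decay genes over 19 comparisons, 297 gave 0, and so did every recount without 1 replicate. With the replicate block, 1 was called for the strains at 60 min (POP2), where 2.1% of all probe sets were called higher. For GAL-NMD2 from 0 to 60 min, 2 were called (POP2 and CCR4), where 4.81% were called higher. The block changed no other call of a decay gene. Centring each array on its median gave 1 in both comparisons, where 5.93% and 4.42% of all probe sets were called higher. Centring with the block, added after seeing the data, is given with the share of all probe sets called higher. For the strains it called 3 at 40 min (DCP2, XRN1, POP2, share 17.6%) and 4 at 60 min (XRN1, CCR4, POP2, PAN2, share 27.4%). For the interaction at 60 min it called 1 (POP2, share 1.37%). In GAL-NMD2 it called 2 each (CCR4, POP2) from 0 to 40 min (share 16.1%) and to 60 min (share 18.9%). Over both strains it called 1 (POP2, share 13.1%). All were higher, and the centred values contain the raised median of all probe sets; the cause was not tested.

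Signs turned only for uncalled values. Centred and quantile-normalized, the strain differences at 60 min were 0.16 and 0.16 for DCP1, 0.22 and 0.19 for PAT1, 0.21 and 0.19 for DHH1, and 0.23 and 0.16 for EDC3. The interactions were 0.084 for XRN1 (centred) and 0.13 and 0.14 for PAN2. From 0 to 60 min in GAL-NMD2 they were 0.063 and 0.053 for DHH1 and 0.13 and 0.13 for PAN2. Leaving out 1 replicate, strain differences at 60 min ran from -0.039 to 0.15 for DCP2, -0.23 to 0.15 for PAT1, -0.31 to 0.24 for DHH1, -0.12 to 0.071 for EDC3 and -0.021 to 0.11 for PAN2. Interactions ran from -0.0060 to 0.26 for DCP1, -0.047 to 0.39 for DHH1, -0.028 to 0.13 for EDC3 and -0.10 to 0.0075 for PAN2. Changes in GAL-NMD2 ran from -0.026 to 0.24 for DCP1, -0.023 to 0.20 for DCP2, -0.031 to 0.10 for XRN1 and -0.024 to 0.13 for EDC3.

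Over all probe sets, the interaction at 60 min called 291, with 126 centred, 168 quantile-normalized, 726 with the block, 554 with both, and 160 to 242 without 1 replicate. The strains at 60 min called 917, with 600 quantile-normalized, 1645 with the block and 2955 with both. GAL-NMD2 from 0 to 60 min called 854, with 1754 with the block, 523 on only the arrays compared and 2385 with both; over both strains 668 became 1721 with the block and 1853 with both. Over all 5 times, 12 became 2 to 920, and 0 to 19 without 1 replicate. The NMD2 interaction lost its call in 10 alternatives. RRP42 in GAL-NMD2 from 0 to 60 min lost its call in 5 of 15 alternatives, among them that without GAL-NMD2 replicate 1 (log2 0.36, limma adjusted p = 0.335). Dim probe sets such as DCP2 limit what these arrays can show.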
